A study of Mus musculus with 8 samples.

Results

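Thalamic gene expression was compared between all mice that had received the neurotoxin MPTP, whether or not they were also needled, and mice that had received saline. The 6 arrays of injected mice were set against the 2 control arrays, which together are all 8 arrays of the series. A gene was counted as above or below when its level on all 6 injected arrays lay above or below that on both controls. All mice were male adult C57BL/6 mice, an inbred laboratory strain, 6 weeks old at the start. Control mice received 100 µl of 0.9% saline daily for 4 weeks. Mice of the MPTP group received MPTP-HCl at 20 mg/kg of free base in the same volume of saline every 24 hr for 4 weeks. Mice of the acupoint group received the same MPTP and were needled by hand at GB34 and LR3 of the hind limb in 14 sessions 48 hr apart, and in the non-acupoint group both hips were needled instead, at the same times. Each of the 4 groups had 2 arrays, 1 mouse per array, although the labels state 9 mice each for the saline and MPTP groups. No group was needled without MPTP, so needling alone was not measured, and 4 of the 6 injected mice were needled.

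MPTP is converted in the brain by monoamine oxidase B into a toxic ion that enters dopaminergic neurons through the dopamine transporter and blocks complex I of the mitochondrial respiratory chain. It is used to model parkinsonism because it damages the dopaminergic neurons of the midbrain. The thalamus relays sensory and motor signals to the cortex through glutamatergic relay neurons, lies under the choroid plexus of the ventricles, and borders the hypothalamus and the midbrain. A tissue piece cut around it can therefore hold RNA of these neighbours. In bulk tissue, fewer cells of a type and less RNA per cell cannot be told apart, and this holds for every level given here.

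Of 35557 probe sets, 23410 carried at least 1 gene symbol. Of these, 15791 for 13524 genes passed a filter that left out the dimmest 40% of probe sets (mean log2 level under 5.63). The median log2 level of an array was between 6.18 and 6.29. Among relay markers on the control arrays, the kinase gene Prkcd stood at 10.74 and 10.90, the vesicular glutamate transporter gene Slc17a6 at 11.23 and 11.16, and the transcription factor gene Lhx9 at 6.97 and 6.82. Levels of different probe sets are not compared. A pair of arrays, the first mouse of the MPTP group and the first of the non-acupoint group, differed from the rest. Their levels correlated at r = 0.982 with one another but at 0.905 to 0.936 with the remaining 6, which correlated among themselves at 0.981 to 0.995. They are called the arrays that stood apart. Both are injected mice, so main values are also given for the 6 arrays without them, called the 6 similar arrays. That fit estimates its spread from the control pair and the acupoint pair alone, and its standard errors do not hold the spread between mice of the MPTP and non-acupoint groups. The p-values measure the spread between 2 mice of a group.

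Above both controls on all 6 injected arrays lay 1623 probe sets, which is 10.3% of those tested, and below both lay 1526, which is 9.66%. They stood for 1436 genes (10.6%) above and 1295 genes (9.58%) below. The differences were mostly small, with a median log2 difference of 0.37 above and -0.32 below. A difference of at least 1 was reached by 31 probe sets above and 26 below, and one of at least 0.5 by 446 and 265. At the border, 1205 probe sets were separated from the controls by at most 0.05, and another 1721 missed separation by at most 0.05. The dim probe sets behaved unequally. Among the 7619 left out by the filter, 109 lay above (1.43%) and 1158 below (15.2%), which makes 1732 above (7.4%) and 2684 below (11.5%) of all 23410 probe sets with a symbol.

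By limma with Benjamini-Hochberg adjustment, 0 probe sets passed an adjusted p of 0.05 on all 8 arrays. The smallest adjusted p was 0.0922, and 1116 probe sets (7.07%) had an unadjusted p under 0.05, of which 646 were higher and 470 lower in injected mice. On the 6 similar arrays 855 passed, 539 higher (3.41%) and 316 lower (2%), for 465 genes higher (3.44%) and 300 lower (2.22%), and 623 of these were also separated on all 8 arrays. The MPTP mouse 2 array weighed on these counts: without it 9 probe sets passed and 3788 had an unadjusted p under 0.05. Without control mouse 1 or 2 the latter count was 329 or 356, and without acupoint mouse 1 or 2 it was 651 or 656. An exact permutation test of any single gene has 28 assignments of the arrays, and its two-sided p, taken as the doubled one-sided p, cannot go under 0.0714. A gene is described below as passing only where it passed on the 6 similar arrays, and the adjusted p for all 8 arrays is given beside the main genes. Most named genes were chosen by their values on all 8 arrays, which include those 6. For them, passing is no separate support.

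**Figure D1:**
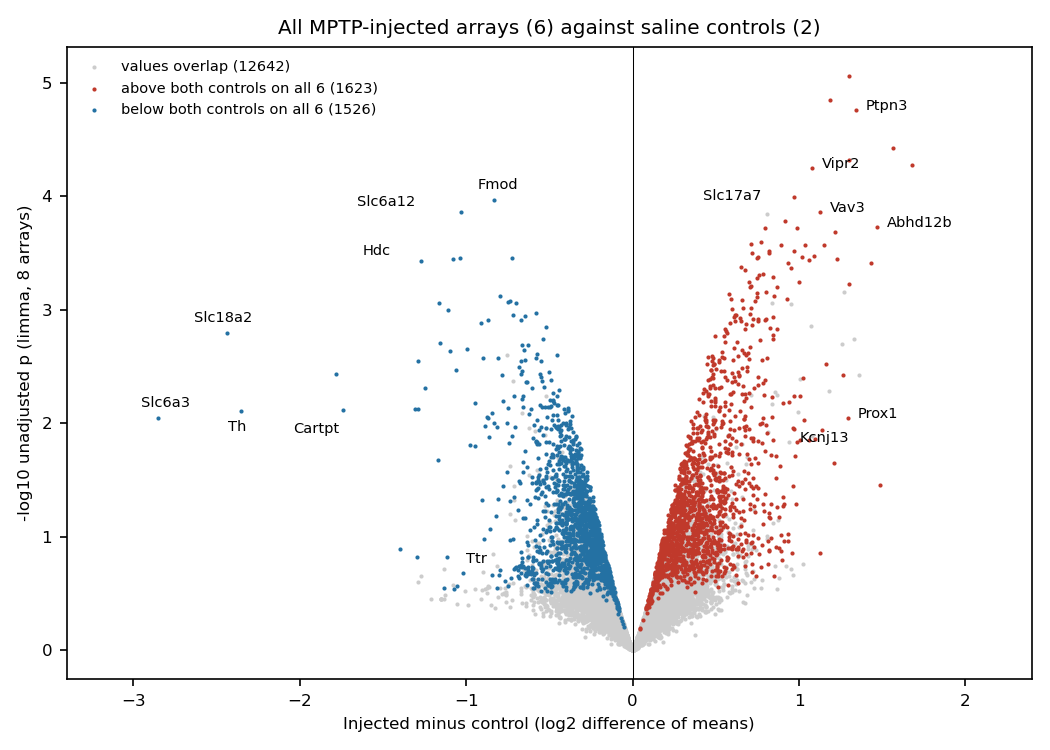
Each point is a tested probe set, with the log2 difference between the mean of the 6 injected and the 2 control arrays on the horizontal axis and -log10 of limma's unadjusted p on the vertical axis. Red points (1623) lay above and blue points (1526) below both controls on all 6 injected arrays, and the named genes with the largest lower values (Slc6a3, Slc18a2 and Th) have larger differences but larger p than Ptpn3.

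The injected mice were not equally far from the controls. Among the 1623 probe sets above, MPTP mouse 2 was the injected array nearest the controls in 802 (49.4%), and non-acupoint mouse 2 in 309 (19%). Among the 1526 below, these arrays were nearest in 562 (36.8%) and 425 (27.9%). The arrays that stood apart lay further out than the other 4 injected arrays, by a median of 0.24 among the probe sets above and -0.20 among those below, against -0.01 over all tested. Without them the median differences were 0.24 and -0.22. The group medians among the probe sets above were 0.40 for MPTP, 0.28 for acupoint and 0.39 for non-acupoint mice, each minus the same controls. The MPTP and non-acupoint groups each hold an array that stood apart and the acupoint group holds none, so these medians do not compare the treatments alone.

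The gene with the smallest adjusted p was Ptpn3, which encodes a non-receptor tyrosine phosphatase. Its log2 level was 9.55 and 9.70 on the control arrays, 10.92 and 10.72 in MPTP mice, 11.16 and 11.08 in acupoint mice, and 11.06 and 10.87 in non-acupoint mice. All injected mice thus lay more than 1 log2 unit above both controls, with little spread among them. The difference was 1.34 ± 0.12 (SE), or 2.54-fold (limma adjusted p = 0.0922, and 0.00459 on the 6 similar arrays). The array carries 12 tested probe sets for Ptpn3, and all 12 lay above both controls, with differences from 0.97 to 1.68. Ptpn4, which encodes a closely related phosphatase, differed by 0.99 ± 0.13, from 9.89 and 9.93 in controls to between 10.65 and 11.13 (limma adjusted p = 0.162).

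Vipr2 encodes a receptor for the peptides VIP and PACAP. It stood at 7.19 and 7.11 in controls and between 8.05 and 8.42 in the injected mice (median 8.23). The difference of 1.08 ± 0.12 was nearly the same in the MPTP (1.01), acupoint (1.20) and non-acupoint (1.02) groups (limma adjusted p = 0.128, and 0.00608 on the 6 similar arrays). Adcyap1, the gene of the ligand PACAP, lay in the other direction, at 7.89 and 7.64 in controls and 6.41 to 7.32 in injected mice. The start regions of Ptpn3 and Vipr2 are shown because these genes had the smallest adjusted p of the genes named. They run from 250 bases before to 10 bases after the RefSeq start (build GRCm38.p6), at chr4:57301828-57302087 on the minus strand and chr12:116077476-116077735 on the plus strand. Capitals mark the letters of 3 motifs searched on both strands, the cAMP response element TGACGTCA, the E-box CACGTG and the GC box GGGCGG, which occur in 1.67%, 6.34% and 33.4% of 32851 promoter windows of this length.
Ptpn3: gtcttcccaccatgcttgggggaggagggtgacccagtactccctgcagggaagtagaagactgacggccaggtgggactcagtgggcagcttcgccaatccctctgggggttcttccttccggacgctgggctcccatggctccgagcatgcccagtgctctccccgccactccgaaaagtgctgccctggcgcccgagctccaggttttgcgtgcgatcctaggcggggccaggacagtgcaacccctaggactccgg
Vipr2: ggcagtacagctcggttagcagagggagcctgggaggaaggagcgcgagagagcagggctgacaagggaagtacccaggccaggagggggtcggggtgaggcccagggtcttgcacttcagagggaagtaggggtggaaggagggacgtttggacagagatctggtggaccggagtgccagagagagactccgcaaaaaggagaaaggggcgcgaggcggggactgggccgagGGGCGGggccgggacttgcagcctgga
The window of Ptpn3 held none of the 3 motifs and that of Vipr2 held a GC box from position -17 to -12, counted from the start. Such a match describes letters only.

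Thalamic relay neuron genes, a list written with earlier results of these data known, lay above both controls in 16 of 23 members and below in 0. The background is 10.6% of genes above and 9.58% below, here and for every list that follows. The list median was 0.72 on all 8 arrays and 0.70 on the 6 similar arrays, where 19 members passed, against a median of -0.01 over all genes. Over the 14 members that the earlier description of these data had not named, 8 lay above, with a median of 0.54. The 3 injected groups had medians of 0.60 (MPTP), 0.97 (acupoint) and 0.70 (non-acupoint). Means over the list per array were -0.56 and -0.47 in controls and 0.03 to 0.36 in injected mice, so the groups did not overlap.

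Vav3, a guanine nucleotide exchange factor, stood at 7.89 and 7.98 in controls and at 8.63 to 9.35 in injected mice (1.13 ± 0.14, 2.18-fold, limma adjusted p = 0.162). MPTP mouse 2 was the lowest of the 6 and still 0.65 above the higher control. Plekhg1, another exchange factor gene, differed by 1.23 ± 0.18, and Adcy1, a calcium-stimulated adenylyl cyclase, by 0.89 ± 0.13. Prkcd, a protein kinase C, stood at 11.47 to 11.94 in injected mice (0.93 ± 0.14). Ntng1, which encodes the axonal adhesion molecule netrin-G1, differed by 1.00 ± 0.16 on its brighter probe set, while its other probe set differed by 0.46 and overlapped the controls.

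Among transcription factors of the relay list, Zic1 differed by 0.71, Rora by 0.65, Tcf7l2 by 0.78, Lef1 by 0.71 and Lhx9 by 0.72, and all 5 lay above both controls on all 6 arrays and passed on the 6 similar arrays. Tcf7l2 and Lef1 encode the nuclear effectors of Wnt signalling. Zic1 was the most uneven of them between groups, at 9.26 and 9.41 in controls, 9.80 and 9.70 in MPTP mice, 10.45 and 10.54 in acupoint mice and 9.77 and 9.99 in non-acupoint mice. Slc17a6, the vesicular glutamate transporter that defines relay neurons, was not separated. MPTP mice had 10.97 and 11.41 and non-acupoint mice 11.07 and 11.59, and the lower value of each pair came from an array that stood apart. Gbx2, Lhx2, Pdp1, Rgs16, Tnnt1 and Calb2 overlapped too. On the 6 similar arrays Slc17a6 differed by 0.36, Pdp1 by 0.56, Rgs16 by 0.56 and Tnnt1 by 0.59. Gbx2 differed there by 0.23, Lhx2 by 0.02 and Calb2 by 0.04. Prkcd, Zic1, Rora, Tcf7l2, Lef1, Lhx9 and Slc17a6 were chosen for naming after their values were seen.

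**Figure D2:**
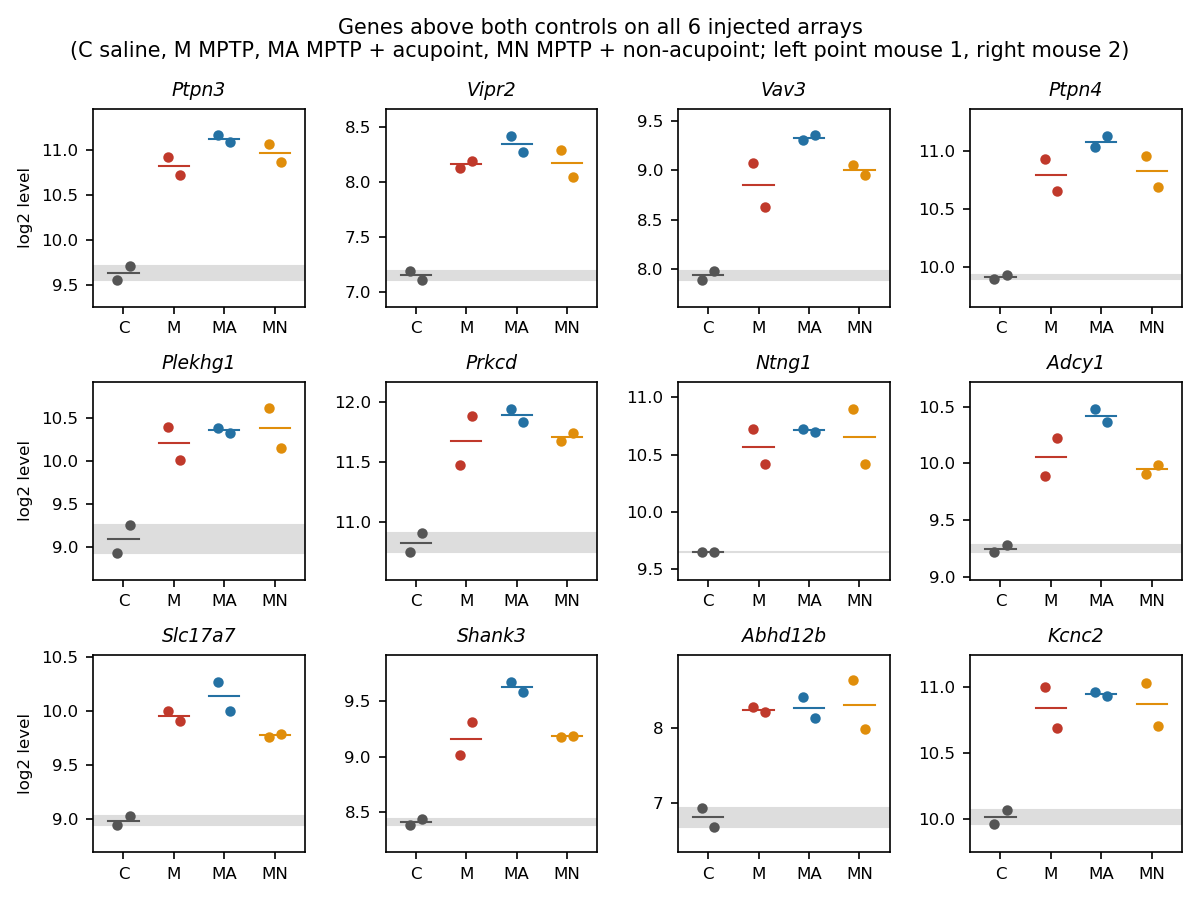
Log2 level (vertical axis, scaled per gene) of 12 genes on each array, by group, with the group mean as a line and the span of the 2 controls shaded. In each panel all 6 injected points lie above the shaded span, as for Ptpn3 (10.72 to 11.16 against 9.55 and 9.70), and acupoint mice are the highest group for Vav3, Adcy1 and Shank3.

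Several of the higher genes named for a small unadjusted p or a wide gap were on no list. Slc17a7, the other vesicular glutamate transporter of the forebrain, stood at 8.94 and 9.03 in controls and at 9.76 to 10.27 in injected mice (0.97 ± 0.12, 1.96-fold, limma adjusted p = 0.162). Shank3, a scaffold of excitatory synapses, differed by 0.92 ± 0.12, and its acupoint mice (9.67 and 9.58) lay above the 4 other injected mice (9.01 to 9.31). Synj2, a phosphoinositide phosphatase, differed by 0.80 ± 0.11 and Syt9, a calcium sensor of vesicle release, by 0.72 ± 0.10. In Syt9 too, acupoint mice (9.69 and 9.72) lay above the other injected mice (9.15 to 9.37). Abhd12b, a member of the hydrolase fold family, had the widest separation of these genes, at 6.93 and 6.68 in controls and 7.99 to 8.63 in injected mice (1.47 ± 0.19, 2.77-fold). Prkch, another protein kinase C, differed by 1.30 ± 0.21, Osbpl3, an oxysterol-binding protein, by 1.09 ± 0.16 and Ogfrl1 by 1.03 ± 0.15. Galnt17, a glycosyltransferase gene (0.77), Tlcd4 (0.71, with acupoint mice at 9.93 and 9.87 and the other injected mice at 9.47 to 9.67) and Plekhd1 (0.82) were separated as well. Each of these genes passed on the 6 similar arrays, with adjusted p from 0.00489 for Prkch to 0.0141 for Plekhd1.

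Prox1, a homeobox gene, was separated but uneven. It stood at 7.86 on both control arrays, at 8.59 to 9.14 on the 4 other injected arrays, and at 9.80 and 9.67 on the arrays that stood apart. Its difference was 1.29 ± 0.35 on all 8 arrays and 0.95 ± 0.08 on the 6 similar arrays. Mef2c, a transcription factor of maturing neurons, had the same shape (1.06 ± 0.32 and 0.76 ± 0.09). The cortical and hippocampal list that holds both was not one-sided, with 3 of 14 members above, Cux2 the other, and 3 below, which were Nptx1, Gabra5 and Emx1.

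Of 22 potassium and pacemaker channel genes 8 lay above both controls and 0 below (median 0.28, and 0.20 on the 6 similar arrays, where 9 passed). Of 19 calcium and sodium channel genes 8 lay above and 0 below (median 0.19 and 0.14). In this list 15 members had a higher mean in injected mice and 4 a lower one, against 48.1% and 51.8% of all genes. Kcnc2, a subunit of the Kv3 channels of fast-firing neurons, stood at 9.96 and 10.07 in controls and at 10.68 to 11.03 in injected mice (0.87 ± 0.14). Kcnq3, a subunit of the M-current channel, differed by 0.59 ± 0.10, Kcnc1 by 0.49 ± 0.12 and Kcnh5 by 0.47 ± 0.12. Cacna1g, which encodes a T-type calcium channel that carries burst firing in relay neurons, stood at 8.31 and 8.41 against 8.71 to 9.34 (0.63 ± 0.13). Cacna1c, an L-type channel, differed by 0.79 ± 0.20, and the sodium channels Scn8a and Scn1a by 0.35 ± 0.10 and 0.32 ± 0.10. These 8 genes were named as the separated members of smallest unadjusted p on all 8 arrays. The 6 similar arrays are among those, so a pass there is no separate support.

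Of 21 glutamate receptor genes 7 lay above and 0 below, with a median of 0.25 that was 0.09 on the 6 similar arrays. Grm4, a presynaptic metabotropic receptor, was even between groups, at 7.87 and 7.82 in controls and at 8.44 to 8.78 in injected mice (0.82 ± 0.12, limma adjusted p = 0.162). The NMDA receptor subunit gene Grin2b differed by 0.75 ± 0.14. Grin2a stood at 8.57 on both controls, at 9.10 to 9.47 on 4 injected arrays, and at 10.17 and 9.96 on the arrays that stood apart, so its difference of 1.00 ± 0.30 was 0.71 ± 0.06 without them. Gria3, an AMPA receptor subunit, differed by 0.56 ± 0.18. Among 12 GABA receptor genes, 4 lay above and 2 below. Gabra4, a subunit of extrasynaptic receptors in the thalamus, differed by 0.75 ± 0.12 and Gabbr2, a subunit of the metabotropic receptor, by 0.63 ± 0.13. Gabre (-0.64 ± 0.14) and Gabra5 (-0.57 ± 0.21) lay below, the latter by only 0.03 because MPTP mouse 1 stood at 8.61.

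The largest differences were in dopaminergic neuron genes, which lay below both controls in 9 of 13 members and above in 0. The list median was -0.66, and -0.80 on the 6 similar arrays, where 7 passed. Of the 10 members not named in the earlier description, 6 lay below. Th encodes tyrosine hydroxylase, which sets the rate of dopamine synthesis. Its level was 9.34 and 9.10 in controls, 6.15 and 8.75 in MPTP mice, 5.97 and 6.22 in acupoint mice, and 6.72 and 7.40 in non-acupoint mice. MPTP mouse 2 was thus 0.35 under the lower control while the other 5 injected mice were at 7.40 or less. The difference was -2.35 ± 0.62, a 5.11-fold lower level (limma adjusted p = 0.433).

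The dopamine transporter gene Slc6a3, the entry route of the toxic ion, was also highest among injected mice in MPTP mouse 2. It stood at 9.96 and 9.83 in controls, 6.20 and 9.39 in MPTP mice, 6.10 and 6.09 in acupoint mice, and 6.64 and 7.83 in non-acupoint mice (-2.85 ± 0.78, 7.22-fold lower, limma adjusted p = 0.46). Slc18a2, the vesicular monoamine transporter, stood at 9.24 and 8.95 in controls and at 5.34 to 8.23 in injected mice, the highest again MPTP mouse 2 (-2.44 ± 0.47, limma adjusted p = 0.247). Chrna6, a nicotinic receptor subunit of dopaminergic neurons, differed by -1.78 ± 0.40 and Slc10a4, a vesicular transporter-like protein, by -1.31 ± 0.34. Ddc, which makes dopamine from L-DOPA, differed by -1.29 ± 0.34. Foxa2 (-0.66), Pitx3 (-0.39) and Lmx1b (-0.37), transcription factors of these neurons, were separated by less, and Nr4a2, Ret, Drd2 and Aldh1a1 overlapped the controls. On the 6 similar arrays the values were -1.81 for Th, -2.12 for Slc6a3 and -2.14 for Slc18a2, and MPTP mouse 2 was then the only array of its group.

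The start regions of these 3 genes are shown because they had the largest differences of the genes named and lay low on the same arrays. They cover the same window on the same build, at chr7:142899986-142900245 (minus strand) for Th, chr13:73536497-73536756 (plus strand) for Slc6a3 and chr19:59260628-59260887 (plus strand) for Slc18a2, with capitals as above.
Th: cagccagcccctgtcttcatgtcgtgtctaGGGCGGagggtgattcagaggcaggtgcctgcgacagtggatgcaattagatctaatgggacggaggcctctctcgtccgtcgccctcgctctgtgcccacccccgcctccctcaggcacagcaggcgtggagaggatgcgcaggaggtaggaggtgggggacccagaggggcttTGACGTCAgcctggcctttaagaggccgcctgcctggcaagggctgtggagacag
Slc6a3: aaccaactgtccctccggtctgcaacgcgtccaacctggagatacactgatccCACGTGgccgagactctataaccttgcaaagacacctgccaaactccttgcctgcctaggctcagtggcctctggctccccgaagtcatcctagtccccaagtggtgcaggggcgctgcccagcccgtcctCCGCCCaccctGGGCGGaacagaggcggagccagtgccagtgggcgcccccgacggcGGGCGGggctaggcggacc
Slc18a2: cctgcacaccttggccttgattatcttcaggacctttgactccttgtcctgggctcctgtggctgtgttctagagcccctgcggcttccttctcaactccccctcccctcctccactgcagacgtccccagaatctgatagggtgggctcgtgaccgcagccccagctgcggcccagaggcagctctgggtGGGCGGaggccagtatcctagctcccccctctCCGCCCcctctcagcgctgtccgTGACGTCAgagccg
The windows of Th and Slc18a2 hold the full cAMP response element, from position -45 to -38 and from -4 to 4, and that of Slc6a3 holds an E-box from -197 to -192. All 3 hold GC boxes. No measurement here bears on whether these letters are bound.

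Of 12 serotonin and noradrenaline neuron genes 10 had a named probe set here and 5 were tested, of which 3 lay below both controls and 0 above. Htr1a, a serotonin autoreceptor, stood at 6.73 and 6.65 in controls and 5.65 to 6.23 in injected mice (-0.72 ± 0.13, limma adjusted p = 0.222). Gata3, a transcription factor of serotonergic and midbrain GABAergic neurons, differed by -1.15 ± 0.23, with injected mice at 5.56 to 6.28 against 7.18 and 7.01. Its relative Gata2 differed by -0.30 ± 0.14.

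**Figure D3:**
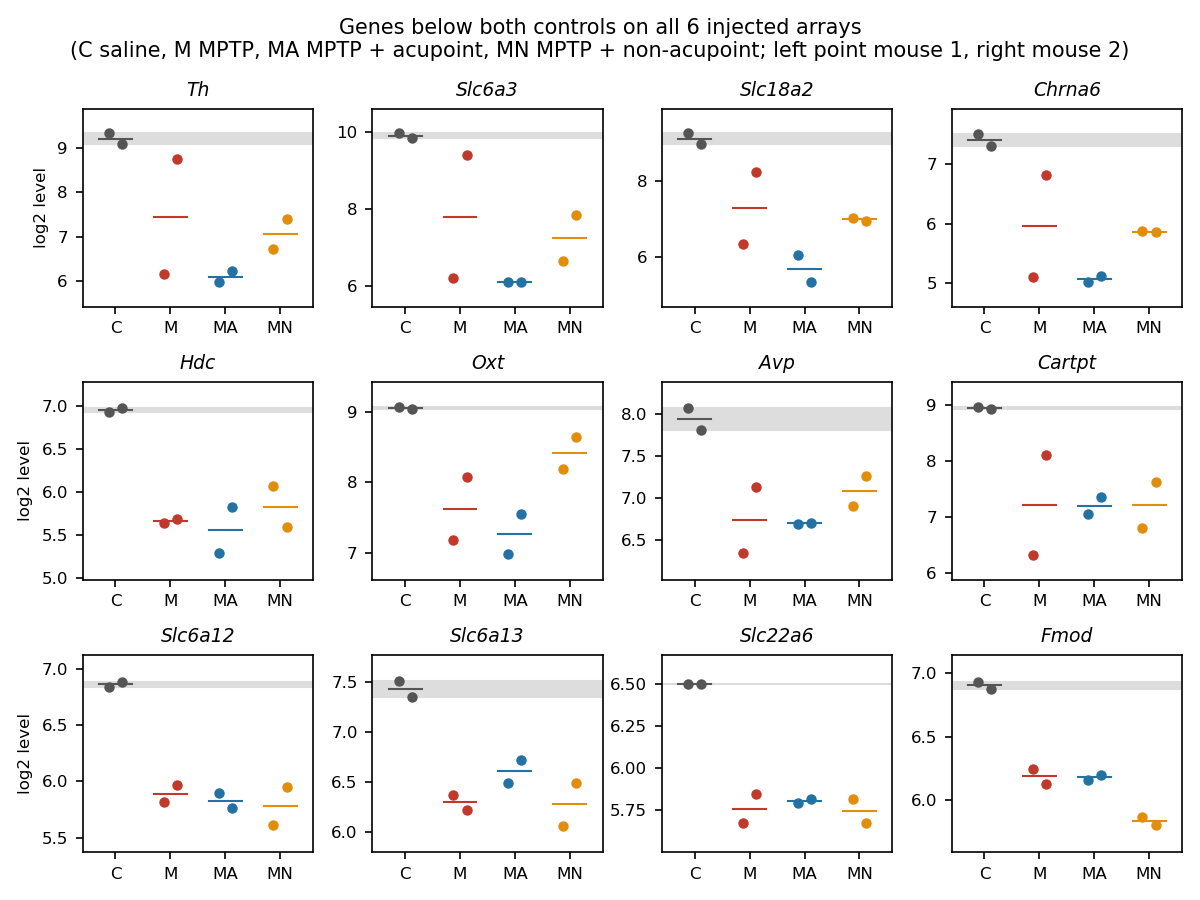
Log2 level (vertical axis, scaled per gene) of 12 genes on each array, by group, with the group mean as a line and the span of the 2 controls shaded. MPTP mouse 2 is the injected mouse nearest the controls for Th (8.75), Slc6a3 (9.39), Slc18a2 (8.23) and Chrna6 (6.82). Slc6a12, Slc22a6 and Fmod lie within a narrow span in all 6 injected mice, at low levels (5.61 to 6.25, with the filter at 5.63).

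Hypothalamic peptide and histamine genes lay below both controls in 10 of 17 members and above in 0 (median -0.44, and -0.39 on the 6 similar arrays, where 5 passed). Of the 12 members not named in the earlier description, 6 lay below. Hdc, which makes histamine, stood at 6.93 and 6.98 in controls and at 5.29 to 6.07 in injected mice (-1.27 ± 0.19, limma adjusted p = 0.162). Irs4, a signalling adapter of the insulin receptor family, differed by -1.08 ± 0.16. Cartpt, which encodes the peptide CART, stood at 8.97 and 8.93 against 6.33 to 8.10, with almost equal differences in the 3 groups (-1.73, -1.75 and -1.74). The mice within a group were less alike, with MPTP mice at 6.33 and 8.10.

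The hormone genes oxytocin, Oxt, and vasopressin, Avp, differed by -1.29 ± 0.28 and -1.10 ± 0.23. Oxt stood at 9.07 and 9.05 in controls, 7.18 and 8.08 in MPTP mice, 6.98 and 7.55 in acupoint mice, and 8.19 and 8.65 in non-acupoint mice, which were nearest the controls. Pomc, Ghrh, Gal, Kiss1 and Nkx2-1 were separated by smaller differences, of -0.37 to -0.46. Pmch and Hcrt, the peptides of the lateral hypothalamus, ranged over several log2 units among the injected mice and overlapped the controls. Pmch stood at 10.14 and 10.18 in controls and at 6.61 to 10.62 in injected mice, and Hcrt at 8.94 and 9.16 against 5.55 to 9.95. Klhl1, an actin-binding neuronal protein (-1.11 ± 0.20), Mab21l2, a developmental gene (-1.16 ± 0.20), and Esr1, an oestrogen receptor (-0.58 ± 0.10), were on no list and lay below on all 6 arrays. Each passed on the 6 similar arrays.

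Neuropeptide and opioid genes, which share Cartpt and Gal with that list, lay below in 8 of 20 members and above in 0 (median -0.27 and -0.28 without the arrays that stood apart). Grp, gastrin-releasing peptide, differed by -0.63 ± 0.13 and Nts, neurotensin, by -0.89 ± 0.25, the latter with non-acupoint mouse 2 at 6.89, only 0.07 under the lower control. Adcyap1 differed by -0.86 ± 0.26. Somatostatin, Sst, and the opioid receptor Oprm1 overlapped the controls.

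Meningeal fibroblast genes lay below both controls in 11 of 14 members and above in 0, with a median of -0.61, and -0.57 on the 6 similar arrays, where 9 passed. Of the 8 not named in the earlier description, 7 lay below. Slc6a12, a betaine and GABA transporter, stood at 6.84 and 6.89 in controls and at 5.61 to 5.97 in injected mice (-1.03 ± 0.13, limma adjusted p = 0.162, and 0.00608 on the 6 similar arrays). Its relative Slc6a13, a GABA and taurine transporter, stood at 7.50 and 7.35 against 6.06 to 6.72 (-1.04 ± 0.15). Slc22a6, an organic anion transporter, stood at 6.50 on both controls and at 5.68 to 5.84 in injected mice (-0.73 ± 0.11). In Slc6a12 and Slc22a6 the 6 injected mice lay close together, but near the filter at 5.63. RMA draws the differences of dim probe sets together, so this closeness is of limited meaning. Slc6a13 was more spread in injected mice (SD 0.23).

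Among matrix genes, Fmod, a collagen-binding proteoglycan, differed by -0.83 ± 0.10 (limma adjusted p = 0.162), from 6.92 and 6.88 to 5.81 to 6.25. Dcn, another such proteoglycan, and the collagen genes Col3a1, Col1a2 and Col1a1 differed by -0.48, -0.44, -0.34 and -0.26. Islr differed by -0.70 ± 0.12, with non-acupoint mice (5.89 and 6.08) under the other 4 (6.57 to 6.89). Aldh1a2, which makes retinoic acid, differed by -1.06 and Slc13a3, a dicarboxylate transporter, by -0.75 ± 0.13. Emp3, a membrane protein gene (-0.80 ± 0.13), Itih2, a hyaluronan-associated protein gene (-0.74 ± 0.13), and Thbd, an endothelial anticoagulant receptor (-0.65 ± 0.12), were on no list and lay below on all 6 arrays. Igf2 and Slc6a20a overlapped, since Igf2 was above the controls in MPTP mice (9.10 and 8.90 against 8.47 and 8.40) and below in non-acupoint mice (7.44 and 7.17).

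**Figure D4:**
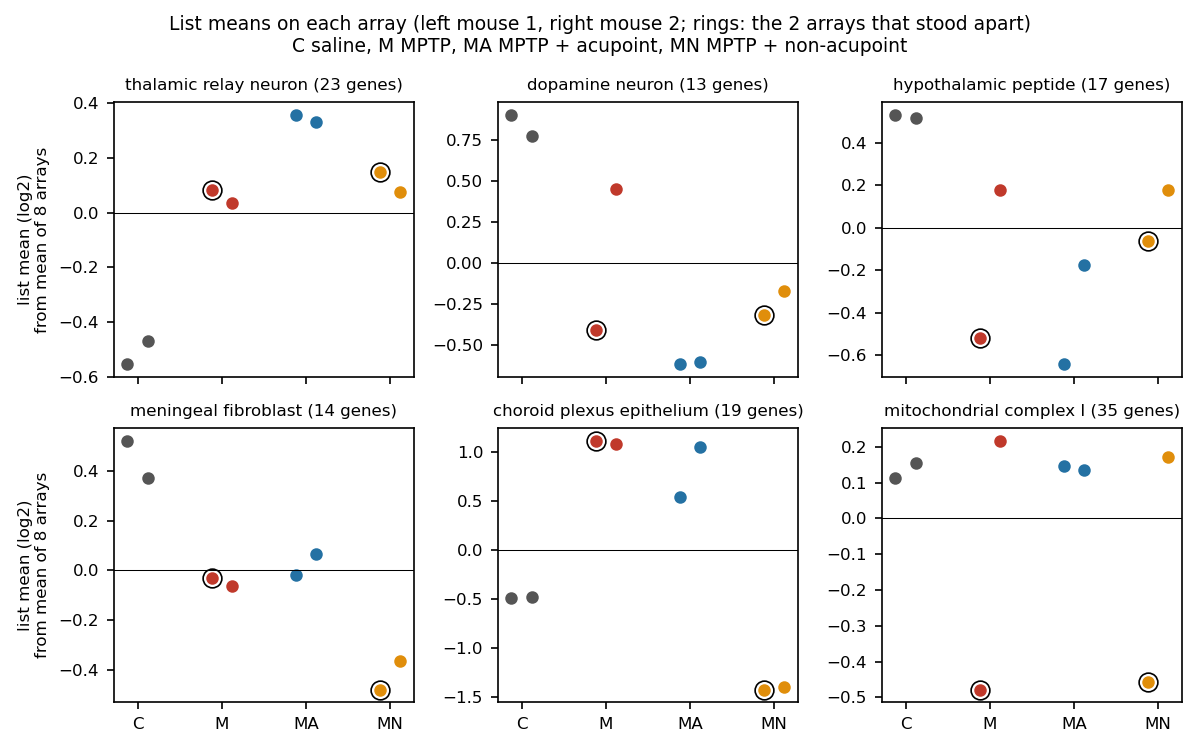
Mean of each gene list on each array, as the log2 deviation from the mean of the 8 arrays, with rings around the 2 arrays that stood apart. The relay, dopaminergic, hypothalamic and meningeal means keep injected mice on one side of the controls, the choroid plexus means place non-acupoint mice below and the other 4 injected mice above, and the complex I means are low only where ringed.

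Choroid plexus epithelium genes differed in direction between the injected groups. Of 19 tested members 0 were separated in either direction, although 18 had a higher mean in injected mice, as 48.1% of all genes did (51.8% had a lower one), and the median was 0.71. Medians by group were 1.51 in MPTP, 1.29 in acupoint and -0.50 in non-acupoint mice. Kcnj13, a potassium channel of that epithelium, stood at 7.50 and 7.56 in controls, 11.07 and 10.13 in MPTP mice, 9.40 and 10.02 in acupoint mice, and 4.91 and 5.30 in non-acupoint mice. The 3 injected groups differed (limma F test, adjusted p = 0.0437). Ttr, the thyroid hormone carrier of cerebrospinal fluid, stood at 12.05 and 12.27 in controls and at 12.91 to 13.65 in MPTP and acupoint mice, but at 5.72 and 8.39 in non-acupoint mice. Its mean difference of -0.90 thus had the other sign than in 4 of the 6 injected mice. The limma F test did not call Ttr (adjusted p = 0.219). It called 4 probe sets of 15791, with 235 at an unadjusted p under 0.05.

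The lists of relay, dopaminergic, hypothalamic, meningeal and choroid plexus genes mark the thalamus and its neighbours. In the first 4 of these lists the means of all injected mice lay on one side of both controls. The order of the injected mice differed between them. Dopaminergic means were lowest in acupoint mice (-0.62 and -0.60) and meningeal means in non-acupoint mice (-0.48 and -0.36). Per array, dopaminergic list means were 0.90 and 0.77 in controls and -0.62 to 0.45 in injected mice, hypothalamic means 0.53 and 0.52 against -0.64 to 0.18, and meningeal means 0.52 and 0.37 against -0.48 to 0.06. The levels are on a log scale without a true zero, so no marker can be called absent. The part that the share of neighbouring tissue in each piece had in any of these differences was not tested. Habenula genes, of the epithalamus, had 0 of 13 separated (median 0.00), striatal genes 0 of 14 (0.06, and -0.25 on the 6 similar arrays), motile cilia genes 0 of 6 (0.23) and blood genes 0 of 3 (-0.24). Thalamic reticular and inhibitory neuron genes had 2 of 11 below, Ecel1 and Slc32a1, by a gap of at most 0.02.

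Most glial genes overlapped the controls, but in the astrocyte and microglia lists the share below exceeded the 9.58% of all genes. Of 15 astrocyte genes 4 lay below and 1 above (median -0.09). Gfap, the intermediate filament that rises in reactive astrocytes, stood at 9.25 and 9.05 in controls, 8.38 and 8.55 in MPTP mice, 8.31 and 8.52 in acupoint mice, and 7.80 and 8.84 in non-acupoint mice (-0.75 ± 0.26, limma adjusted p = 0.627, and 0.0325 on the 6 similar arrays). All 6 injected mice were thus below the controls. The water channel Aqp4 (-0.28), S100b (-0.42) and the gap junction gene Gja1 (-0.20) lay below, and Gjb6 (0.32) above. S100b stood at 9.25 and 9.16 on the arrays that stood apart and at 9.67 to 9.92 on the other injected arrays. Its difference was -0.20 on the 6 similar arrays. Gja1 cleared the controls by a gap of only 0.01. Of 14 microglia genes 3 lay below and 0 above (median -0.14). These were the fractalkine receptor Cx3cr1 (-0.29 ± 0.11), Tmem119 (-0.25) and the complement gene C1qc (-0.43), and Aif1 overlapped (-0.13 ± 0.17). Tmem119 cleared the controls by a gap of only 0.01. C1qc stood at 8.11 and 8.09 on the arrays that stood apart and at 8.65 to 8.86 on the other injected arrays. Its difference was -0.21 on the 6 similar arrays. Of 17 oligodendrocyte lineage genes only Pdgfra (0.44 ± 0.21) was separated, and it differed by 0.25 on the 6 similar arrays. The myelin gene Mbp differed by -0.11 ± 0.10.

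In the list of endothelial cells and pericytes 4 of 16 lay above and 2 below. The efflux and uptake transporters of the blood-brain barrier Abcb1a and Slco1a4 differed by 0.53 ± 0.21 and 0.80 ± 0.32. Both arrays that stood apart were at the top for Abcb1a (9.20 and 9.21 against 8.43 to 8.95) and Slco1a4 (10.50 and 10.03 against 9.25 to 9.59). On the 6 similar arrays Abcb1a differed by 0.36 and Slco1a4 by 0.51. Acta2, smooth muscle actin, differed by -0.55 ± 0.14. Abcc9 and Pdgfrb lay above, with mean differences of 0.24 and 0.17, and Itm2a below.

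Circadian clock genes lay above in 7 of 18 members and below in 0, with a median of 0.25 that was 0.13 on the 6 similar arrays. The nuclear receptor gene Rorb stood at 8.41 and 8.40 against 8.75 to 9.34 (0.70 ± 0.15). Ciart differed by 0.54 ± 0.15 on its brighter probe set, while its other probe set differed by 0.26 and overlapped the controls. Hlf, an output transcription factor, differed by 0.80 ± 0.25. It stood at 10.66 on both arrays that stood apart and at 9.94 to 10.26 on the other 4. Cry2 differed by 0.39 ± 0.14 and Per1 by 0.42 ± 0.19. Per2 (0.13 ± 0.19) and Dbp (-0.08 ± 0.21) overlapped the controls, and both changed sign on the 6 similar arrays (-0.03 and 0.10). The labels used give no time of death.

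Heat shock and unfolded protein genes lay below in 8 of 22 members and above in 0 (median -0.30, and -0.17 on the 6 similar arrays, where 1 passed). Creld2, an endoplasmic reticulum chaperone, stood at 8.20 and 8.06 against 7.24 to 7.81 (-0.65 ± 0.13) and was the member that passed. Xbp1, a transcription factor of the unfolded protein response, differed by -0.62 ± 0.17, Hspa1a by -0.87 ± 0.24 and Sdf2l1 by -0.98 ± 0.30, and acupoint mouse 2 was the nearest to the controls in each of these 4 genes. Of 20 immediate early genes 2 lay below, Egr4 (-0.40 ± 0.13) and Fosl2 (-0.48 ± 0.17), and Fos overlapped (-0.26 ± 0.19). That share was near the 9.58% of all genes below. Of 15 glucocorticoid response genes Fkbp5 (0.59 ± 0.18) and Per1 lay above, Fkbp5 by 0.01 because non-acupoint mouse 1 stood at 7.82. The share above was near the 10.6% of all genes. Of 10 cytokine and interferon genes Ccl5 and Ifit3 lay below, with mean differences of -0.29 and -0.35. Ifit3 cleared the controls by a gap of only 0.002, and its difference was -0.13 on the 6 similar arrays.

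Antioxidant genes had 3 of 21 below, against 9.58% of all genes, and the arrays that stood apart set most of their size. Sod1, superoxide dismutase, stood at 11.40 and 11.36 in controls, at 9.83 and 10.16 on those arrays and at 11.05 to 11.28 on the other 4, so the difference of -0.60 ± 0.42 was -0.18 ± 0.06 without them. Gstp1 differed by -0.50, and by -0.24 without them, and Gstm1 was even (-0.13). Mitochondrial complex I genes, which encode the target of the toxic ion, lay below in 2 of 35 and above in 1, with a median of -0.15 that was 0.04 without those arrays. Ribosomal protein genes, several of which have near-identical copies that the array may not tell apart, lay below in 10 of 40 and above in 0 (median -0.23, and -0.06).

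Of 11 genes linked to Parkinson disease Dnajc6 (0.33 ± 0.15) and Uchl1 (0.30 ± 0.18) lay above and 0 below (median 0.05). Both genes were highest on the arrays that stood apart, with Uchl1 at 12.23 and 12.24 there and 11.77 to 11.84 on the other injected arrays. On the 6 similar arrays Dnajc6 differed by 0.21 and Uchl1 by 0.15. Of 16 neurotrophic genes 6 lay below and Ntrk2 above (median -0.23). The growth factor gene Mdk stood at 7.37 on both controls and at 6.92 to 7.13 in injected mice (-0.33 ± 0.11), Gfra2 differed by -0.42 ± 0.15 and its ligand gene Nrtn by -0.43 ± 0.18. Of 17 cholesterol genes only Nsdhl was separated (0.35 ± 0.26), by 0.02 above the controls, and it differed by 0.09 without the arrays that stood apart.

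**Figure D5:**
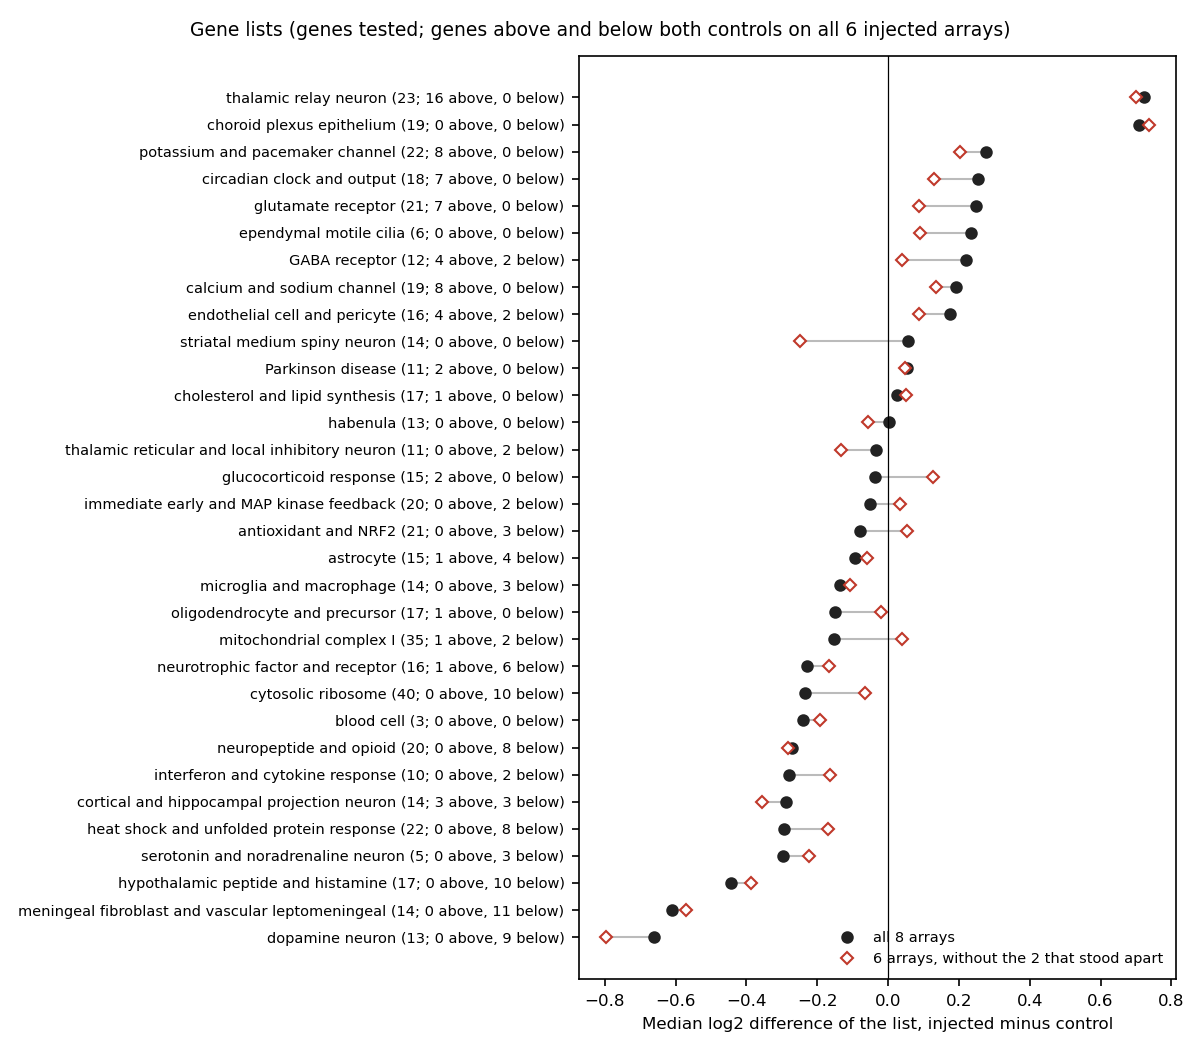
Median log2 difference, injected minus control, of each of 32 gene lists on all 8 arrays (black) and on the 6 similar arrays (red diamonds), with the genes tested and separated in brackets. The relay (0.72 and 0.70) and meningeal (-0.61 and -0.57) medians hardly move, whereas those of complex I (-0.15 and 0.04) and the ribosome (-0.23 and -0.06) approach or cross 0.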

How the data were processed

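Gene expression was measured on Affymetrix whole-transcript arrays from 300 ng of total RNA of thalamic tissue per mouse, per the labels' protocols. The deposited values are log2 levels, which the authors made with Affymetrix Expression Console and RMA, per the submitters' processing notes. RMA corrects background, normalizes arrays to a common distribution and summarizes probes, which hides any change in the total RNA of a cell and draws the small differences of dim probe sets together. The sources used here give no versions. The number of arrays limits the precision.

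Genes were named through the platform annotation. Of 35557 probe sets, 21789 had 1 symbol, 1621 several (tested, not named) and 12147 none here, and 200 tested probe sets shared their values with another. The dimmest 40% by mean level were left out. A mean for each of 4 groups was fitted with limma 3.58.1 in R 4.3.3, and the mean of the 3 injected groups minus control was tested with eBayes (4 residual and 2.53 prior degrees of freedom) and Benjamini-Hochberg adjustment over 15791 probe sets at 0.05. List values use 1 probe set per gene, that of highest mean. Lists have no test of their own and are described by counts and medians. The procedure was tested on simulated data.

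The comparison, the 32 gene lists, the alternatives and the rule for naming genes were chosen with earlier results of these data known. The rule takes up to 15 genes in each direction by adjusted p or else by the smallest unadjusted p among separated genes, up to 10 in each direction with the widest gap, up to 4 separated members per list, and 10 genes in every case. It gave 119 genes, and other genes were named after their values were seen. Promoter sequences are from RefSeq, build GRCm38.p6.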

Additional observations from a re-analysis of the deposited data

Results flagged for a closer look

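Ttr was above both controls in MPTP and acupoint mice, by up to 1.29 on the log2 scale as a group mean, and below them in both non-acupoint mice (-5.10). The limma F test over the 3 injected groups gave Ttr an adjusted p of 0.219, which is not under 0.05. Kcnj13 differed between these groups (limma F test, adjusted p = 0.0437). In Synj2, MPTP mouse 2 (8.42) lay far under the other 5 injected mice for the small range of that gene (8.58 to 8.67), yet above both controls. In Manf, acupoint mouse 2 (8.42) lay above the other 5 (7.99 to 8.14) and 0.01 under the lower control. The mean of the astrocyte list was highest in non-acupoint mouse 2 (0.0944, against -0.025 for the next), and that of the neuropeptide and opioid list lowest in acupoint mouse 1 (-0.38, against -0.09). The criterion is set so that chance alone makes an array stand out this way in about 1 of 20 genes or lists.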

How the results depend on the processing

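Of 119 genes followed, 79 passed the threshold under at least 1 of 13 alternatives or with 1 of 8 mice left out. Most were separated on all 8 mice, so leaving out arrays could not turn their direction, and a kept direction is then no sign of stability. Of the genes that overlapped the controls, Aif1, Dbp and Per2 changed sign. Per2 was -0.0251 and Dbp 0.10 on the 6 similar arrays and with a term for the arrays that stood apart, Aif1 0.0265 and Dbp 0.0284 without control mouse 1, and Dbp 0.0279 without MPTP mouse 1 and 8e-04 without non-acupoint mouse 1. With a mouse left out Aif1 ran from -0.29 to 0.0265 and Dbp from -0.18 to 0.0284.

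Probe sets past the adjusted threshold (0) became 855 on the 6 similar arrays, 333 with a term for the arrays that stood apart, 30 with 1 coefficient for all injected arrays, 230 with array weights and 1 with no filter, and 0 to 9 with a mouse left out. It stayed 0 with another quantile normalization, cyclic loess, the dimmest 60% left out, an intensity trend, robust eBayes, 1 probe set per gene and unnamed probe sets included. Those with an unadjusted p under 0.05 (1116) became 3972, 2769, 3385 (weights), 1926 (no filter) and 730 (dimmest 60% left out), and 329 to 3788 with a mouse left out. Probe sets above became 2794 on the 6 similar arrays, and 1727 to 2736 with a mouse left out. Those below became 2459, 2684 with no filter and 940 without the dimmest 60%, and 1640 to 2740. Removing arrays loosens the demand that all lie on one side. Without MPTP mouse 2, its group consists of an array unlike the rest.

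The labels number mice within groups but do not say that equal numbers were paired. Deviations of equally numbered mice correlated at -0.28 to 0.82, so the numbers were not taken as pairs. With mouse number as a replicate block 0 probe sets passed and 1282 had an unadjusted p under 0.05.

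Of 32 lists, 19 kept their median within the spread between mice of a group. That spread includes the arrays that stood apart and is wide where they differ (0.33 for complex I). A kept median is then no sign of stability. Medians counted as kept changed sign on the 6 similar arrays for complex I (-0.15 and 0.04), striatal (0.06 and -0.25) and glucocorticoid genes (-0.04 and 0.13). Those of antioxidant (-0.08 and 0.05) and habenula genes (0.0027 and -0.056) did so too. On the 6 similar arrays, and equally with the added term, medians were -0.22 for serotonin, 0.13 for clock, 0.0345 for immediate early, -0.16 for interferon, -0.17 for neurotrophic and 0.0387 for GABA receptor genes. With no filter interferon was -0.18 and neurotrophic -0.19, and with another quantile normalization Parkinson disease was 0.0073. Without the dimmest 60%, which left no blood gene, meningeal was -0.34, hypothalamic -1.11, serotonin 0.21 (the other sign) and microglia -0.0092. With a mouse left out, medians ran from -0.69 to -0.49 (meningeal), 0.66 to 0.84 (relay), -0.54 to -0.35 (hypothalamic), -0.36 to -0.24 (serotonin), -0.20 to -0.0389 (astrocyte), -0.20 to -0.10 (microglia), 0.16 to 0.36 (clock), -0.06 to 0.02 (immediate early), -0.33 to -0.19 (interferon), 0.03 to 0.08 (Parkinson), -0.26 to -0.19 (neurotrophic), 0.17 to 0.24 (GABA) and 0.24 to 0.39 (potassium channels). The causes were not tested.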

Other observations

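Of 776 genes with at least 2 tested probe sets, 151 had a probe set above both controls on all 6 injected arrays and 38 had all of theirs there, and 112 had one below and 20 all. In 3 genes a probe set lay above and another below. Probe sets above were brighter (median of the mean log2 level 8.43) and those below dimmer (7.44) than all tested (7.79).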
